A study of Mus musculus with 238 samples.

Results

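Zbtb16 (ENSMUSG00000066687.5) is 1 of the 21076 gene rows of the count table and was followed here through 15 brain regions and liver. It lies on the minus strand of chromosome 9, chr9:48654297-48836222 in GRCm38, with 7 exons in its longest transcript, 2 protein-coding transcripts and 0 other annotated genes overlapping it (GENCODE M21). The gene was chosen by its CPM difference between the diets in brain and liver, so its diet values are a description. Where a fit of all genes called it between the diets, the call is given beside the share of genes called, and nothing is read from it. Its levels in the PBS mice and its difference between the plasma groups did not enter that choice and were tested. Its regional levels in the AL mice were tested too, though the AL libraries are part of the diet difference.

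Zbtb16 encodes PLZF, a transcription factor with an N-terminal BTB domain, which binds corepressors, and a row of C-terminal zinc fingers, which bind DNA. PLZF was first found fused to the retinoic acid receptor alpha in a form of acute promyelocytic leukaemia, and it directs the development of natural killer T cells and the upkeep of spermatogonial stem cells. In many cell types its gene is induced by glucocorticoids through the glucocorticoid receptor.

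Bulk RNA came from 16 C57BL/6JN mice aged 19 months. The diet experiment held females, 5 on dietary restriction (aDR, written DR for liver) and 4 fed ad libitum (AL). The plasma experiment held males, 3 given young mouse plasma (YMP) and 4 given saline (PBS), both into the retro-orbital sinus. Sex and experiment cannot be told apart, and the labels give neither the length of the treatments nor the hour of sampling. Of 238 libraries, 131 were brain libraries of the diet experiment, 98 brain libraries of the plasma experiment and 9 liver libraries. Groups held 2 to 5 libraries, each from another mouse. Depth per library lay between 0.606 and 32.4 M counts, at a median of 8.44 M. Zbtb16 itself had between 26 and 1420 counts per library and a median of 258.5, so that counting error was largest in the shallow libraries of the low regions. Levels are given in CPM, the counts of a gene per M counts of its library. In bulk tissue, fewer cells of a type and less RNA per cell cannot be told apart.

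The tissue labels were checked before the gene was examined by region. Each brain library was correlated with the mean of every region over the other mice, on the 1500 genes that varied most between regions, without Zbtb16. For 12 of 229 libraries another region gave a higher correlation than the labelled one. The entorhinal cortex library of PBS mouse 72 correlated at 0.968 with visual cortex and at 0.912 with entorhinal cortex. The SVZ (subventricular zone) library of the same mouse correlated at 0.935 with corpus callosum and at 0.878 with SVZ. The others were SVZ of YMP mice 73 and 77 and aDR mouse 64, choroid plexus of YMP mice 73 and 77, posterior hippocampus of AL mouse 68 and YMP mouse 77, corpus callosum of aDR mouse 67, caudate putamen of PBS mouse 76 and motor cortex of PBS mouse 72. The F tests of the regional levels and the diet and plasma differences are given with and without these libraries.

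The libraries labelled choroid plexus went partly against their label. Ttr, the transthyretin gene and the leading transcript of choroid plexus epithelium, ran from 127 CPM in YMP mouse 73 to 14557 CPM in YMP mouse 77. Its mean over control libraries was 6306 CPM there and 7752 CPM in the libraries labelled corpus callosum. Neuronal Snap25 averaged 2935 CPM in the control libraries labelled choroid plexus, against 2862 CPM in anterior hippocampus, and Mbp, a myelin gene, averaged 7462 CPM. Zbtb16 values under this label are therefore values of mixed tissue.

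In control mice Zbtb16 was high in cortex and hippocampus and low in the deep and hindbrain regions. In AL mice motor cortex was highest, with 66.5, 66.6, 76.6 and 90.8 CPM in the 4 mice. Anterior hippocampus followed with 63.7, 67.6, 72.1 and 81.1 CPM, posterior hippocampus with 56.6, 65.9, 69.3 and 72.9 CPM, and visual cortex with 54.5, 58.9, 73.0 and 74.5 CPM. These 4 regions overlapped one another. Libraries labelled choroid plexus averaged 52.4 ± 15.1 CPM (SD, n = 4), entorhinal cortex 40.3 ± 10.4 CPM (SD, n = 3) and olfactory bulb 33.9 ± 3.09 CPM (SD, n = 4). Below them lay medulla at 17.9, SVZ at 17.7, pons at 16.8, cerebellum at 16.7, corpus callosum at 16 and hypothalamus at 13.3 CPM on average. Thalamus averaged 11.1 ± 2.38 CPM (SD, n = 4). Caudate putamen was lowest, with 5.75, 9.74, 10.6 and 11.9 CPM. Liver, outside this order, averaged 17.7 ± 4.59 CPM (SD, n = 4) in AL mice.

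The same regions were high and the same were low in the PBS mice, which are another sex and another experiment. Across the 15 regions the AL and PBS profiles of Zbtb16 correlated at r = 0.979, a value that includes the gap between high and low regions. Within the low regions the order differed: corpus callosum averaged 16 CPM in AL and 18.6 CPM in PBS mice, and SVZ 17.7 and 11.5 CPM. In PBS mice the highest levels were in posterior hippocampus (79.4 CPM) and motor cortex (78.5 CPM), and the lowest were in thalamus (9.06 CPM) and caudate putamen (8.58 CPM). The level differed between regions by the edgeR F test over all regions, with F = 54.0 and an adjusted p of 5.85e-23 in AL mice and F = 34.6 and an adjusted p of 1.28e-17 in PBS mice. Without the libraries nearer another region F was 53.3 and 48.2. Nearly all genes differed between regions in this test, 98.1% of those tested in AL and 96.1% in PBS mice.

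Single regions were then set against the mean of the other 14. In AL mice 14 of 15 regions differed by an edgeR adjusted p under 0.05, and in PBS mice 13 of 15 did. Over all genes and regions 47.6% of such tests were called in AL and 41.3% in PBS mice. Motor cortex lay above the other regions by a log2 difference of 1.63 (SE 0.12) in AL and 1.85 (SE 0.16) in PBS mice. Caudate putamen lay below them, at -1.51 (SE 0.17) and -1.54 (SE 0.23). Olfactory bulb was the exception in AL mice, at 0.24 (SE 0.14, edgeR adjusted p 0.132). In PBS mice the exceptions were corpus callosum at -0.43 (SE 0.25, adjusted p 0.176) and pons at -0.55 (SE 0.26, adjusted p 0.0864). With the mouse as a replicate block pons was called too, with an adjusted p of 0.0423.

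Of the 14 steps between neighbours in the AL order, 9 were smaller than their SE in AL mice and 3 in PBS mice, and on the log2 scale of the fits 1 step went up in AL and 4 went up in PBS mice. Of these steps, 1 was called in AL mice, that from olfactory bulb down to medulla, with a log2 difference of 0.78 (SE 0.21, edgeR adjusted p 8.44e-04). The same step was 1.10 (SE 0.27, adjusted p 4.75e-04) in PBS mice, and the libraries of both regions did not overlap in either group. It separated a higher set, made up of cortex, hippocampus, the choroid plexus label and olfactory bulb, from a lower set of 8 regions. In PBS mice the step from visual cortex to the choroid plexus label was also called, at 0.83 (SE 0.27, adjusted p 0.0118). With the replicate block another step passed in PBS mice, that between cerebellum and corpus callosum (-0.75, adjusted p 0.0450).

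A pair of PBS libraries departed from this order. PBS mouse 72 had 58.9 CPM in entorhinal cortex, where the other 3 PBS mice had 20.6, 23.8 and 26.1 CPM. In anterior hippocampus it had 35.5 CPM, where the others had 63.2, 64.7 and 66.9 CPM. The first is the library whose overall profile correlated best with visual cortex, a region in which the PBS mice had 64.7, 66.3 and 78.0 CPM. The profile of the second correlated best with its own label, at 0.912, and at 0.870 with posterior hippocampus.

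Under the choroid plexus label Zbtb16 moved with the makeup of the libraries. The plot of Zbtb16 against marker sums in these libraries shows the 16 values, which ran from 14.9 CPM in YMP mouse 77 to 69.2 CPM in aDR mouse 62. Zbtb16 was low where the summed level of 5 oligodendrocyte genes was high (Pearson r = -0.83, permutation p = 2e-05, the smallest that 100000 permutations can give, adjusted p 8e-05, Spearman rho = -0.93, permutation p = 2e-05, n = 16). Without the 2 libraries farthest from the median r was -0.84. Within the experiments r was -0.71 over the 9 diet libraries (exact permutation p = 0.0301) and -0.92 over the 7 plasma libraries (exact permutation p = 3.97e-04). Against the summed choroid plexus epithelium genes r was -0.60 (permutation p = 1.6e-04, rho = -0.79, permutation p = 5e-04, n = 16), and within the experiments -0.66 and -0.55, of which the second was -0.16 without the 2 farthest plasma libraries. Against hippocampus genes r was -0.72 (permutation p = 0.00212, rho = -0.58, permutation p = 0.0214). Against cortex genes r was 0.50 (permutation p = 0.0376, rho = 0.56, permutation p = 0.0267), with 0.18 in the diet and 0.77 in the plasma libraries. These 4 relations, with all p two-sided, were chosen after the values had been seen. The diet and plasma differences under this label are thus values of libraries whose tissue makeup varied, and the part of that makeup in them was not tested.

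**Figure D1:**
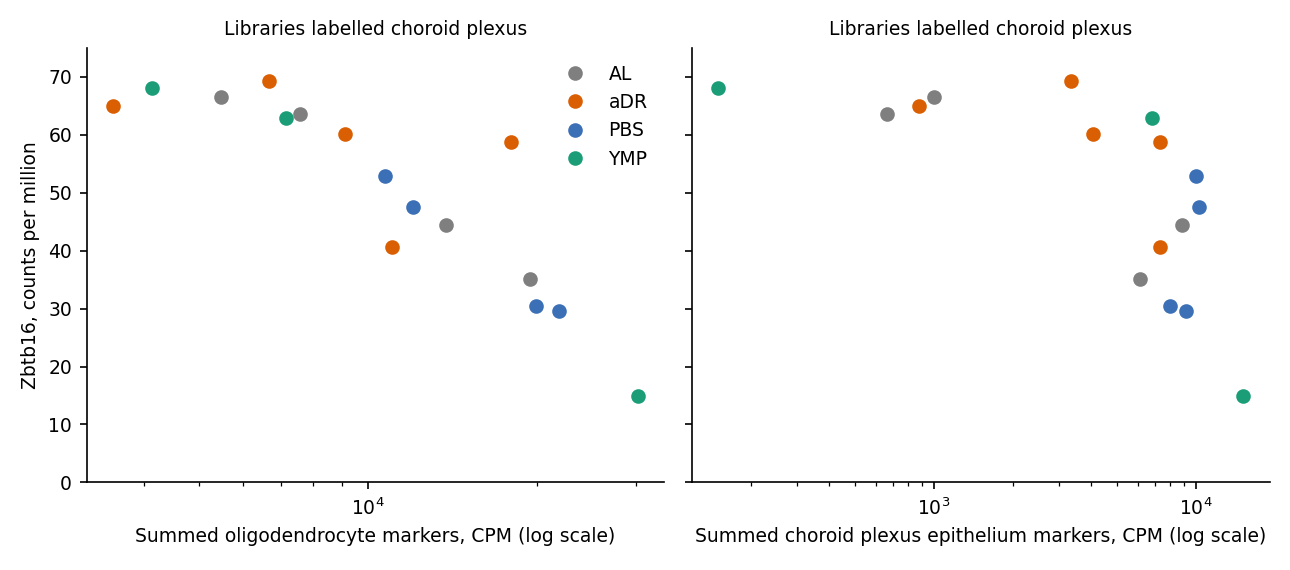
Zbtb16 in CPM (vertical axis) against the summed CPM of 5 oligodendrocyte genes (left) or 6 choroid plexus epithelium genes (right), on log horizontal axes, in the 16 libraries labelled choroid plexus. Each point is 1 library, coloured by group. YMP mouse 77, at 14.9 CPM of Zbtb16, has the highest sum in both panels, and YMP mouse 73, at 68.0 CPM, the lowest sum in the right panel.

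In the restricted mice Zbtb16 was higher than in the freely fed mice in liver and in 14 of 15 brain regions, the values by which it had been chosen. Liver held the largest difference. The AL livers had 11.4, 17.3, 19.8 and 22.1 CPM and the DR livers 42.7, 47.7, 48.0, 57.1 and 74.95 CPM. The groups did not overlap, but the share of liver genes separated in this way was not taken, so nothing is read from it. The log2 change in liver was 1.66 (SE 0.22). By edgeR 26 genes, 0.22% of those tested, were called in liver, Zbtb16 among them, and nothing is read from this since the contrast served to choose the gene. Natural killer T cells reside in liver and express PLZF, and genes of T and natural killer T cells (Cd3e, Cd3g, Cd2 and Klrb1c) were followed. The summed level of these genes was 6.41 to 8.31 CPM in AL and 3.43 to 7.42 CPM in DR livers, with none of the 4 genes at 0 throughout. Their means in AL liver were low, from 0.50 CPM for Klrb1c to 3.01 CPM for Cd3e. They do not single out natural killer T cells, whose part in the result was not tested. Hemoglobin genes were lower in the DR livers without overlap (44.3 to 87.5 against 94.3 to 214.5 CPM). By edgeR 0 of 4 were called and 4 had an unadjusted p under 0.05, where 9.09% of all liver genes stood. The share of liver genes lower without overlap was not taken, and the part of the hemoglobin genes in the result was not tested.

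**Figure D2:**
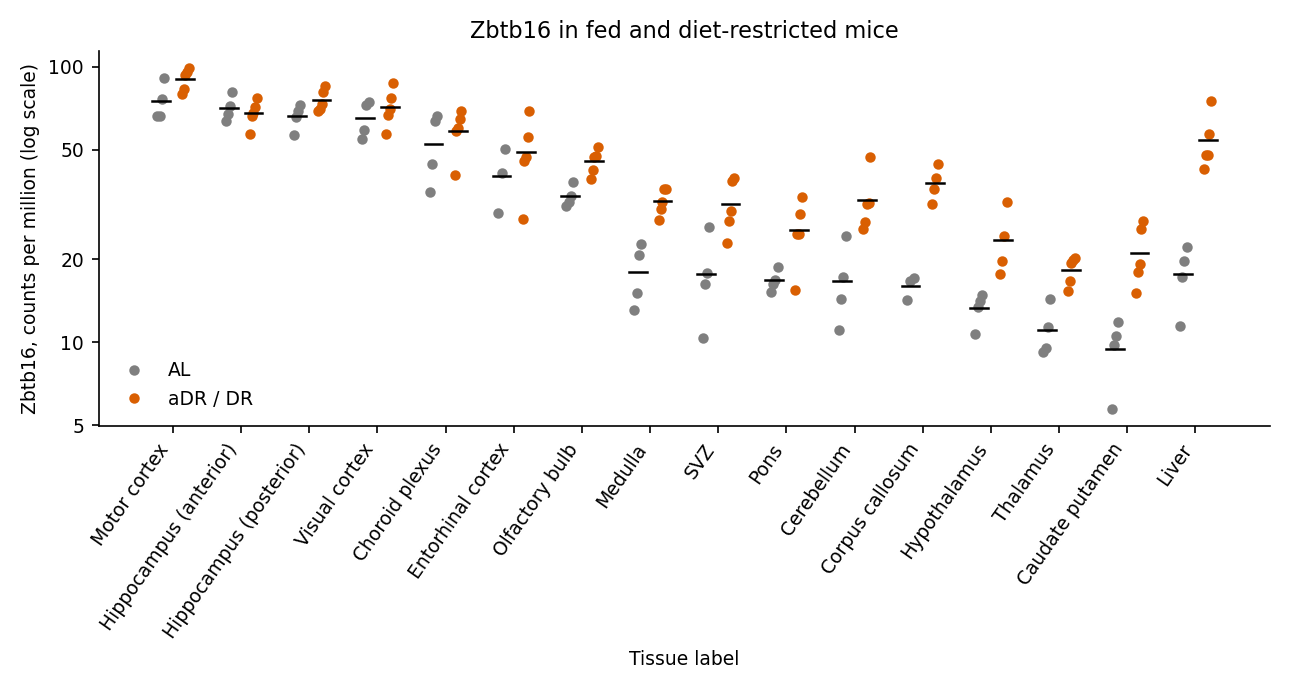
Zbtb16 in CPM on a log vertical axis in AL mice (grey) and restricted mice (orange, aDR in brain and DR in liver), by tissue label, with brain regions in the order of their AL mean. Each point is 1 library and each bar a group mean. The groups overlap at the left, where AL means exceed 40 CPM, and stand apart in liver and in 7 regions further right.

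In 7 brain regions every aDR library lay above every AL library. Corpus callosum had 14.3, 16.7 and 17.1 CPM in AL and 31.8, 36.1, 39.5 and 44.3 CPM in aDR mice, a log2 change of 1.27 (SE 0.14). Caudate putamen, with the AL values given above, had 15.2, 18.1, 19.2, 25.7 and 27.5 CPM in aDR mice, a change of 1.19 (SE 0.21). Cerebellum had 11, 14.4, 17.2 and 24.3 CPM in AL and 25.8, 27.3, 31.8, 32.1 and 47.1 CPM in aDR mice, a change of 1.01 (SE 0.21). These 3 had the largest log2 changes among the brain regions.

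Medulla had 13.2, 15.1, 20.8 and 22.7 CPM in AL and 27.7, 30.4, 32.2, 36.1 and 36.2 CPM in aDR mice, a change of 0.85 (SE 0.15). In hypothalamus the AL mice had 10.7, 13.5, 14.1 and 14.8 CPM and the aDR mice 17.7, 19.7, 24.3 and 32.3 CPM, a change of 0.85 (SE 0.19). In thalamus they had 9.19, 9.56, 11.3 and 14.4 CPM against 15.4, 16.7, 19.4, 19.8 and 20.2 CPM, a change of 0.76 (SE 0.15). Olfactory bulb, the only region of the higher set whose groups did not overlap, had 31.3, 32.2, 33.9 and 38.2 CPM against 39.3, 42.2, 47.3, 47.5 and 51.3 CPM, a change of 0.40 (SE 0.084). Complete separation of this kind occurred in 1.39% of all gene and region pairs. By edgeR Zbtb16 was called in corpus callosum alone of the 15 regions, where 0.0369% of all tests were called as higher.

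The other regions overlapped between the diets. SVZ had 10.4, 16.3, 17.8 and 26.2 CPM in AL and 22.9, 27.6, 30.0, 38.5 and 39.5 CPM in aDR mice, a log2 change of 0.86 (SE 0.25), and a single AL mouse, 68, reached into the aDR range. Pons had 15.3, 16.3, 16.9 and 18.7 CPM against 15.5, 24.7, 24.8, 29.3 and 33.8 CPM, a change of 0.68 (SE 0.20), with aDR mouse 64 inside the AL range. Changes were small in motor cortex (0.26, SE 0.090), posterior hippocampus (0.20, SE 0.089), visual cortex (0.13, SE 0.11) and anterior hippocampus (-0.035, SE 0.099). Entorhinal cortex changed by 0.32 (SE 0.27) and the choroid plexus label by 0.18 (SE 0.21). Leaving out the libraries that resembled another region gave 1.19 for corpus callosum, 0.14 for posterior hippocampus and 0.87 for SVZ, and ended the call in corpus callosum.

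The differences were also taken in CPM. The aDR mean exceeded the AL mean by 11.7 CPM in caudate putamen, 16.1 CPM in cerebellum, 21.9 CPM in corpus callosum, 15.2 CPM in motor cortex and 11.6 CPM in olfactory bulb. In the 4 regions of motor and visual cortex and hippocampus the fold between group means was 0.956 to 1.202, and in the other 11 it was 1.12 to 2.37. The difference in CPM ranged from -3.14 to 15.2 in the first and from 6.30 to 21.9 in the second. The edgeR F statistic of region by diet was 4.33 and stood second among 15616 genes, in a test that called 0.0128% of genes, and this too belongs to the contrast by which the gene was chosen. It ran from 3.22 to 5.22 when each mouse was left out in turn, with the call lost in 7 of 9 cases, and was 4.12, again without a call, when the libraries nearer another region were left out.

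Over the regions each mouse was given 1 value, the mouse term of log2 CPM on region and mouse. The AL mice stood at -0.41, -0.39, -0.24 and -0.23 and the aDR mice at -0.011, 0.19, 0.29, 0.36 and 0.45, a difference of 0.57 (SE 0.090, limma) with no overlap. Of all genes 4.16% separated the mice in this way, and limma called 0.525% of genes higher in the aDR mice, Zbtb16 included. It was no longer called when any 1 of 7 of the 9 mice was left out, while the difference stayed between 0.53 and 0.64. Without the libraries nearer another region it was 0.56. Mouse 64 was lowest among the restricted mice both in brain and in liver (42.7 CPM), and mouse 63 was lowest among the AL mice in both (11.4 CPM in liver). Mouse 62, with the highest liver value, was only the third in brain.

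The plasma comparison asked whether young plasma changes the old brain, and here Zbtb16 was tested. It was higher in the YMP than in the PBS mice in 14 of 15 regions on the log2 scale. However, 0 of 15 regions passed the edgeR test, and DESeq2 called 0. An unadjusted edgeR p under 0.05 was found in 4 regions, medulla, olfactory bulb, SVZ and thalamus. Such a p stood in 1300 of 13886, 1233 of 13948, 1910 of 14120 and 332 of 13710 genes there, in that order. Of all gene and region tests 0.0127% were called. In 4 regions every YMP library lay above every PBS library, which happened for 4.82% of all gene and region pairs.

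**Figure D3:**
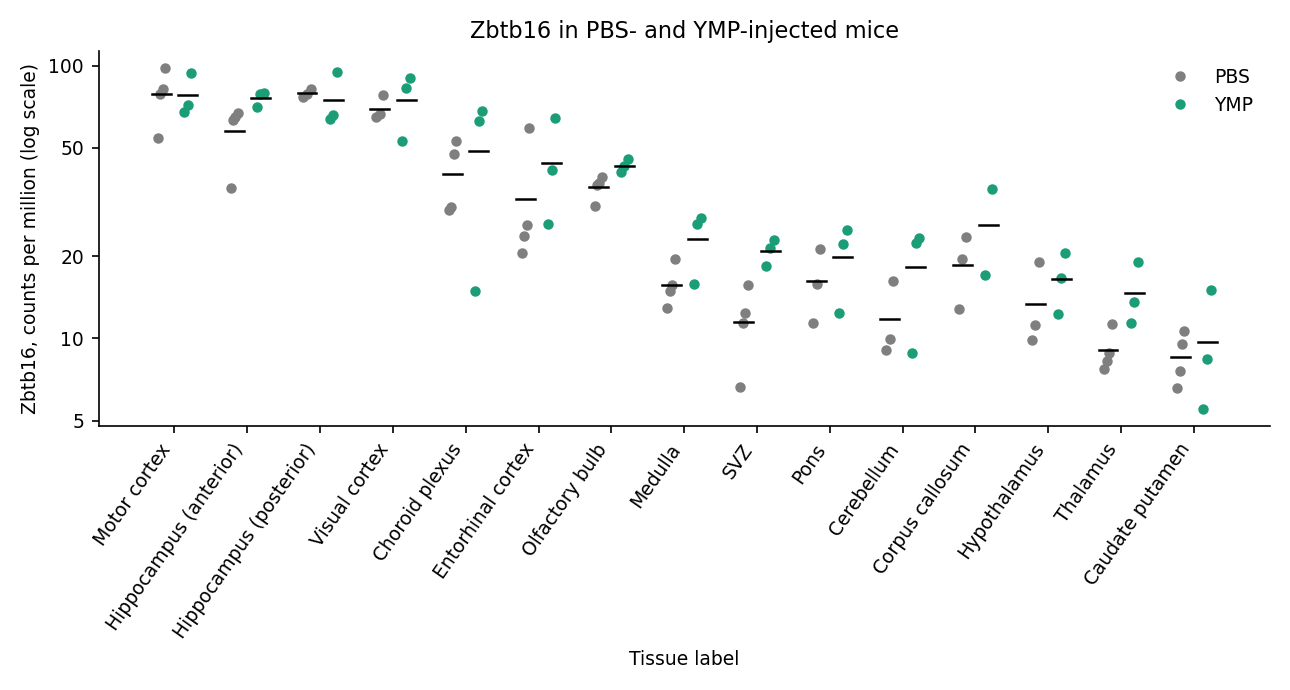
Zbtb16 in CPM on a log vertical axis in PBS mice (grey) and YMP mice (green), by region in the same order as in the plot of the diets. Each point is 1 library and each bar a group mean. The groups stand apart only in anterior hippocampus, olfactory bulb, SVZ and thalamus.

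SVZ showed the largest difference. The PBS mice had 6.67, 11.4, 12.4 and 15.7 CPM and the YMP mice 18.5, 21.5 and 23.1 CPM, which amounts to 0.92 on the log2 scale (SE 0.25, edgeR adjusted p 0.186). The SVZ libraries also differed in their makeup. The summed choroid plexus epithelium genes were 2849 to 19655 CPM in the PBS and 27.3 to 50.7 CPM in the YMP libraries, with Ttr at 0.11 to 3.56 CPM in the latter. The 3 cortex marker genes summed to 13.9 to 47.8 CPM in the PBS and 49.8 to 63.3 CPM in the YMP libraries, and Zbtb16 was high in cortex. The part of these differences in the result was not tested. With the 3 SVZ libraries nearer another region left out, the change was 0.82. It then rested on 1 YMP library, that of mouse 81, with no spread of its own group. Mouse 81 was the highest of the plasma mice in 13 of 15 regions.

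Thalamus had 7.76, 8.27, 8.88 and 11.3 CPM in the PBS and 11.4, 13.6 and 19.1 CPM in the YMP mice, a shift of 0.67 in log2 (SE 0.21, edgeR adjusted p 0.9997). Olfactory bulb had 30.6, 36.5, 37.2 and 38.9 CPM against 40.6, 42.9 and 45.7 CPM, a change of 0.27 (SE 0.093, adjusted p 0.464). In both regions the groups did not overlap, but the lowest YMP value lay close to the highest PBS value. In anterior hippocampus the PBS values given above were followed by 70.5, 79.1 and 79.6 CPM in the YMP mice, a change of 0.44 (SE 0.21, adjusted p 0.683). Without PBS mouse 72 this change was 0.24. There the oligodendrocyte genes summed to 7413 to 14373 CPM in PBS and 6205 to 7303 CPM in YMP libraries, and their part was not tested.

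The remaining regions overlapped. Under the choroid plexus label the PBS libraries had 29.6, 30.4, 47.6 and 52.8 CPM and the YMP libraries 14.9, 62.9 and 68.0 CPM, a change of 0.28 (SE 0.47). It was 0.63 without YMP mice 73 and 77, and then rested on 1 YMP library, that of mouse 81, with no spread of its own group. Medulla changed by 0.60 (SE 0.19), cerebellum by 0.61 (SE 0.36), corpus callosum by 0.50 (SE 0.34) and entorhinal cortex by 0.41 (SE 0.40). The entorhinal change was 0.85 (SE 0.28, edgeR adjusted p 0.826) without the library of PBS mouse 72 that resembled visual cortex. In corpus callosum 17.1 and 35.2 CPM in the YMP mice stood beside 12.8, 19.6 and 23.5 CPM in the PBS mice, and the summed choroid plexus genes were 8.82 to 20.8 CPM in the first and 5011 to 18618 CPM in the second. Their part in the result was not tested. Hypothalamus (0.34), caudate putamen (0.21), pons (0.18), visual cortex (0.12) and motor cortex (0.017) had SEs of 0.17 to 0.32, and posterior hippocampus changed by -0.081 (SE 0.14). The change in motor cortex was -0.13 without PBS mouse 72, that in caudate putamen 0.18 without PBS mouse 76 and that in posterior hippocampus -0.033 without YMP mouse 77.

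Much of the plasma difference came with 1 mouse. YMP mouse 81 lay above the median of its region in 15 of 15 regions and was the highest of all 7 mice in 13 of them. YMP mouse 73 was above the median in 6 of 14 regions and was the lowest in 4. Over the regions the PBS mice stood at -0.33, -0.26, -0.15 and 0.13 and the YMP mice at -0.059, 0.088 and 0.57. The groups overlapped, with a difference of 0.35 (SE 0.17, limma adjusted p 0.644, exact permutation p = 0.171, two-sided, where 0.0571 is the smallest the design allows). Without mouse 81 the difference was 0.16, and without the libraries nearer another region 0.36 (limma adjusted p 0.869). Over the same regions 0 of 6 choroid plexus epithelium genes had a positive plasma change, with a median of -1.23 against -0.0037 over all genes, 0 called by limma and 5 at an unadjusted p under 0.05, and their part in the difference was not tested. Without choroid plexus, corpus callosum and SVZ, where that median was -0.32, the difference was 0.31 (limma adjusted p 0.958). limma called 0 genes between the plasma groups, 0% of 15768, with 1275 at an unadjusted p under 0.05. The region by plasma F statistic of Zbtb16 was 0.65 (edgeR adjusted p 1), and 1.02 without the libraries nearer another region, in a test that called 0.786% of genes, so a difference in response between regions was not detected.

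Regions with a low control level had the larger relative differences under diet, as the plot of control level against change shows. To keep the level apart from the change, the level was taken from the other experiment. Over 15 regions the PBS level correlated with the diet change at r = -0.86 (Spearman rho = -0.80), and the AL level with the plasma change at r = -0.53 (rho = -0.46). Against differences in CPM the correlations were -0.35 for diet and 0.097 for plasma. The diet and plasma changes of the regions correlated at r = 0.48 (rho = 0.50). These values describe 15 regions of the same mice, which are not independent, and carry no test.

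**Figure D4:**
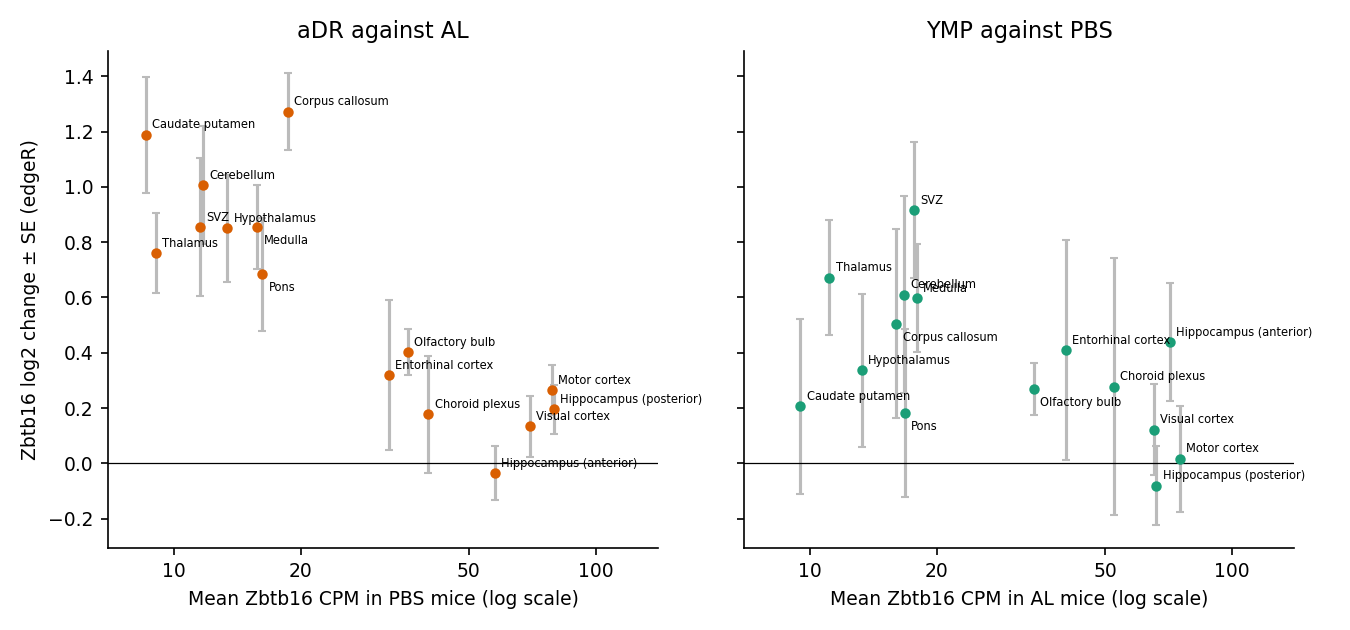
Log2 change of Zbtb16 with its SE (edgeR) on the vertical axis against the mean CPM of the control mice of the other experiment on a log horizontal axis, for diet (left) and plasma (right). Each point is 1 of 15 regions. On the left the regions under 20 CPM lie above 0.6 and all regions over 30 CPM lie at or under 0.40, and on the right the points are spread more widely.

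The glucocorticoid receptor binds DNA as a dimer, at paired half-sites that face each other across a short spacer, and a list of 25 of its known target genes was set beside Zbtb16. Across brain regions all 25 had a positive diet change, with a median of 0.24 against -0.0062 over all genes, and limma called 5 higher and 0 lower, where 0.525% of all genes were called higher. Plin4, which coats lipid droplets, had 14.3 CPM in aDR and 3.21 CPM in AL mice, a log2 change of 2.03 (SE 0.25, limma adjusted p 0.0131). Hif3a, a hypoxia-inducible factor subunit, changed by 1.09 (SE 0.15, adjusted p 0.0233), Arrdc2, an arrestin family gene, by 0.53 (adjusted p 0.0329), Tsc22d3, the anti-inflammatory GILZ, by 0.50 (adjusted p 0.0208), and Per1, of the circadian clock, by 0.33 (adjusted p 0.0311). Fkbp5, the cochaperone that restrains the receptor, changed by 0.56 (adjusted p 0.0942) and Sgk1, a serum and glucocorticoid regulated kinase, by 0.62 (adjusted p 0.129). With each mouse left out in turn 0 to 4 of the 25 passed, and 0 without AL mouse 66. The list was chosen with results of these mice known and is no independent evidence.

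In liver 17 of 24 list genes had a positive diet change and 1, Plin4, was called, at 10.1 against 1.58 CPM (log2 change 2.80, SE 0.31, edgeR adjusted p 0.00495). Fkbp5 (0.84, adjusted p 0.454), Per1 (0.85, adjusted p 0.375) and Tsc22d3 (0.54, adjusted p 0.429) did not pass. The median over the list was 0.42, against 0.018 over all genes. The receptors themselves did not differ by the test. Nr3c1, the glucocorticoid receptor, changed by 0.010 in liver and -0.088 in brain, and Nr3c2, the mineralocorticoid receptor, by -0.37 and -0.15.

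Under plasma 19 of the 25 genes had a positive change over the brain regions, with a median of 0.22 against -0.0037 over all genes, and limma called 0, with 3 at an unadjusted p under 0.05. Sgk1 changed by 0.76 (SE 0.42, limma adjusted p 0.667). It was higher in the YMP mean in 15 of 15 regions, by a log2 change of 0.45 to 1.60, but these regions are of the same mice. Its mouse values were 1.09 and 0.87 in YMP mice 77 and 81. In YMP mouse 73 the value was -0.65, inside the PBS range of -0.74 to 0.011. Fkbp5 changed by 0.19 (adjusted p 0.625) and Tsc22d3 by 0.22 (adjusted p 0.652), higher in 12 and 13 of 15 regions. Plin4, the gene with the largest diet change on the list, changed by -0.064. The 2 experiments share no mice.

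Promoter sequences were searched for the core of the receptor's site, ACANNNTGT, which reads the same on both strands. RefSeq promoters (GRCm38.p6), from 250 bases before to 50 after each gene start, were given for 23 of the 25 genes, with 34 starts. The core was in 4 of these 34, or 11.8%, against 6.85% of all 32851 promoters. The matches are shown because they belong to the genes set beside Zbtb16, with the core in capitals. Zbtb16 itself was not searched.
Sgk1, chr10:21978535-21978563: tctgtttgaaACAGTTTGTctacatagct
Sgk1, chr10:21993694-21993722: tgcggaaagaACAGAATGTtctcggagat
Mt1, chr8:94178987-94179015: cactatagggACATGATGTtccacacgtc
Lcn2, chr2:32387873-32387901 (minus strand): aagtatttcaACAGAATGTactggcaatt
The second Sgk1 match starts 186 bases before that gene start. The windows of Plin4, Hif3a, Tsc22d3, Per1 and Fkbp5 did not hold these letters. Arrdc2 was not among the genes with a match, and whether it was among the 23 genes with a promoter is not given here.

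Over the 7 plasma mice the mouse value of Zbtb16 was set against 3 target genes. It correlated with Fkbp5 at Pearson r = 0.75 (exact permutation p = 0.0726, adjusted p 0.136, Spearman rho = 0.64, exact permutation p = 0.139, n = 7). For Tsc22d3 r was 0.74 (exact permutation p = 0.0909, adjusted p 0.136, rho = 0.43, exact permutation p = 0.354, n = 7). For Sgk1 r was 0.63 (exact permutation p = 0.183, adjusted p 0.183, rho = 0.43, exact permutation p = 0.354, n = 7). None of the 3 relations passed, and without mice 72 and 81, those farthest from the median of Zbtb16, r fell to 0.44, 0.55 and 0.49. Without YMP mouse 81 alone r was 0.65 for Fkbp5, 0.36 for Tsc22d3 and 0.40 for Sgk1. In the plot of mouse values YMP mice 77 and 81 were the highest 2 of 7 for all 3 target genes, while YMP mouse 73 lay among the PBS mice.

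**Figure D5:**
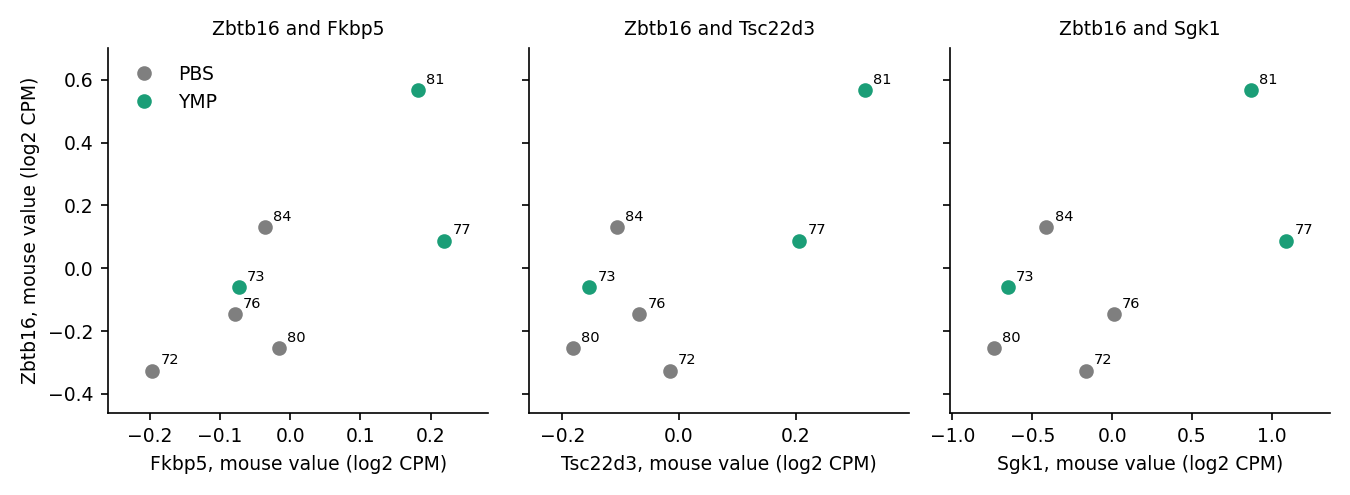
Mouse value of Zbtb16 (vertical axes) against that of Fkbp5, Tsc22d3 and Sgk1 (horizontal axes), all in log2 CPM over the brain regions, for 4 PBS mice (grey) and 3 YMP mice (green) labelled with the mouse number. YMP mouse 81 has the highest Zbtb16 value, 0.57, and lies at the right with YMP mouse 77 in every panel.

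At the level of single libraries, deviations from the group mean within a region were compared over 229 brain libraries. Of the 25 target genes 21 correlated positively with Zbtb16, with a median r of 0.18 against 0.0036 over all genes. The highest were Per1 at 0.35, Fkbp5 at 0.33 and Klf9, a zinc finger gene induced by the receptor, at 0.33. The 10 genes most like Zbtb16 in this measure included Ksr1 (r = 0.52), Scai, Kcnn2, Taok1, Slc7a5, Zmiz1, Cdc73, B3galt2 and Tcf4 (r = 0.48). When ranked by Spearman's rho, 3 of these 10 remained. The lowest were Puf60 (-0.52), Tmed1 (-0.48) and Jund (-0.47). Their longest transcripts had a median of 8720 bases in the 10 highest and 1668 in the 3 lowest genes, against 3353 over all genes and 5114 for Zbtb16. What these points share is their library, so that the part of transcript length and RNA quality was not tested.

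By region profile, over 15 regional means of the control mice, the genes most like Zbtb16 were Evc2 (r = 0.94), a gene of primary cilia, and Adra1d (r = 0.94), the alpha-1D adrenergic receptor. They were followed by Slc26a8, Tnks1bp1, Opcml, Gucy2g, Rtn4rl2, Psrc1, Zfp251 and Ptgs2, cyclooxygenase 2 (r = 0.90). The opposite profile was strongest in Abcc10 (-0.94), Dhrs13 (-0.91) and Sncaip (-0.89). Of the 10 highest, 7 remained with AL means alone, 9 with PBS means alone and 3 when ranked by Spearman's rho.

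No gene on 3 lists of PLZF biology was called between the diets. At an unadjusted p under 0.05 stood 16.1% of all genes across brain regions and 9.09% in liver, and the list counts are to be read against these shares. Among the other BTB zinc finger genes limma called 0 of 45 across brain regions, with 8 at an unadjusted p under 0.05, and edgeR called 0 of 43 in liver, with 4. Among corepressors and other partners, such as Ncor1, Sin3a and Hdac3, 0 of 15 were called in brain (5 unadjusted) and 0 of 14 in liver (1 unadjusted). Of genes that PLZF is reported to regulate 0 of 7 and 0 of 8 were called (0 and 2 unadjusted). Median changes of these lists in brain were -0.016, -0.010 and 0.026, against -0.0062 over all genes. Under plasma limma called 0 of 45, 0 of 15 and 0 of 7, with 3, 0 and 0 at an unadjusted p under 0.05, where 8.09% of all genes stood.

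Markers of other cell types moved with the diets in brain. The endothelial genes Cldn5 (-0.48), Flt1 (-0.26) and Kdr (-0.56) fell (limma), 3 of 4 on the list, where 0.397% of all genes were called lower. With each mouse left out in turn 0 to 2 of the 4 passed, 0 of them without AL mouse 66, and 1 passed without choroid plexus and corpus callosum. The summed list was lower in the aDR mean in 15 of 15 regions, without overlap in 7. The share of all genes lower without overlap was not taken, so nothing is read from this count. Cerebellum, corpus callosum, hypothalamus and thalamus were among those 7 and among the 7 regions in which Zbtb16 did not overlap. In caudate putamen, medulla and olfactory bulb the endothelial sums overlapped. Sets of 7 among 15 regions can share members without any link, and a link was not tested. Hemoglobin genes had a median change of 0.97 with 0 of 4 called, and 4 of 4 were positive. The summed microglia genes were lower in the aDR mean in 15 of 15 regions too, with overlap in each. All 3 pericyte genes were lower (limma), with a median change of -0.25 and 0 called. All 3 had an unadjusted p under 0.05, where 16.1% of all genes stood. Their sum was higher in the aDR mean in 1 of 15 regions, with overlap in each. The summed oligodendrocyte precursor genes were higher in 3 of 15 regions and lower without overlap in 2. The summed astrocyte, oligodendrocyte and neuron genes were higher in 7 of 15 regions and overlapped in all 15. The part of the endothelial, pericyte, microglia, oligodendrocyte precursor and blood genes in the Zbtb16 difference was not tested.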

How the data were processed

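The authors deposited 1 table of raw read counts per gene for 238 libraries, prepared by Smart-seq2 and Nextera XT without strand information, per the labels' protocols. The submitters' processing notes name Trim Galore 0.3.7, STAR 2.5.3a, DESeq2 and GRCm38. The counting program and annotation are not given in the sources used here.

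From the deposited counts, each tissue was fitted with edgeR 4.0.16 (quasi-likelihood, filterByExpr at min.count 10 and min.total.count 15, TMM, Benjamini-Hochberg over all genes, threshold 0.05), in R 4.3.3. Values over regions came from limma 3.58.1 on 1 value per mouse (log2 CPM, prior count 2). Differences between regions used an edgeR F test, and DESeq2 1.42.0 was an alternative. Brain libraries of a mouse shared a number: deviations of the same mouse correlated at a mean r of 0.039 (diet) and 0.071 (plasma), against -0.0048 and -0.012 between mice. Printed CPM are counts over the library total. The scripts were tested on simulated data. The p-values of fits within a single tissue and of the mouse values measure the spread between these mice. In the F tests and the comparisons of regions, libraries of the same mouse counted as independent unless a replicate block is named.

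The gene, the lists and the tests were chosen with earlier results of these data known. Named genes were Zbtb16, the 10 most and 3 least like it, list genes past the threshold, and otherwise those of highest level; a gene that this rule would name is not reported here. Examples beyond this rule (Fkbp5, Sgk1, Per1 and Tsc22d3 in liver, and Plin4 under plasma) were chosen after their values were seen.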

Additional observations from a re-analysis of the deposited data

Results flagged for a closer look

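PBS mouse 72 was flagged in 2 of 39 groups of 4 to 10 libraries in which a sample could stand far from the others, a rule that chance meets in about 1 in 20 groups. Its entorhinal cortex library had 58.9 CPM of Zbtb16, against a group median of 24.9, and the gap to the nearest library was 0.858 of the range. Its anterior hippocampus library had 35.5 CPM against a median of 63.9, with a gap of 0.882 of the range. The F statistic of region by diet (edgeR) was 4.33 for Zbtb16. It belongs to the contrast by which the gene was chosen and is a description, and its call was lost with 7 of the 9 mice left out singly and without the libraries nearer another region.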

How the results depend on the processing

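Of 192 values under other settings (DESeq2, RLE scaling, no filter, another prior count, a replicate block, left-out regions or libraries), 185 changed little. For tested values this means the same direction and side of the threshold. For diet values it means a move smaller than the spread between mice, or under 1.5 times for F statistics and counts, whatever their calls. List medians had to move by less than over the left-out mice, and 5 moved further. Calls of Zbtb16 under diet changed more: edgeR called 1 region and DESeq2 6. The share of all gene and region tests called by DESeq2 is not given here, so nothing is read from its count. Without the libraries nearer another region neither corpus callosum nor the F statistic of region by diet was called. Without the libraries nearer another region the plasma change in motor cortex was -0.13. With no replicate block, which counts the regions of a mouse as independent, the plasma difference over regions was 0.33 (limma on single libraries, adjusted p 0.00895). With the mouse as a replicate block it was 0.30 (adjusted p 0.157) and the diet difference 0.50. Genes called over regions numbered 0 for plasma and 144 for diet, 486 and 1474 with the block, and 2629 and 2760 without it.

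With each mouse left out in turn, plasma changes ran from -0.32 to 0.48 in caudate putamen, -0.050 to 0.71 under the choroid plexus label, -0.11 to 0.88 in corpus callosum, -0.26 to 0.029 in posterior hippocampus, -0.16 to 0.15 in motor cortex, -0.042 to 0.46 in pons and -0.017 to 0.31 in visual cortex. In caudate putamen, corpus callosum and visual cortex the negative values came without YMP mouse 81. Under the choroid plexus label they came without YMP mouse 73, and in pons without YMP mouse 77. Motor cortex stood at -0.16 without YMP mouse 81 and at -0.13 without PBS mouse 72. Posterior hippocampus, at -0.081 with all mice, was positive only without YMP mouse 73 (0.029). The cause was not tested. The difference over regions ran from 0.16 to 0.47 for plasma and from 0.53 to 0.64 for diet, and liver from 1.504 to 1.82. The diet change in anterior hippocampus ran from -0.088 to 0.039, and in corpus callosum from 1.16 to 1.34, with 0 of 7 leave-outs called. Regions with a positive change numbered 13 to 14 for diet and 10 to 14 for plasma. Groups of 2 to 5 mice and 26 counts in the shallowest case limit the precision.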
